A study of Homo sapiens with 3 samples.

Results

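TXNIP, its arrestin relatives ARRDC1, ARRDC2, ARRDC3 and ARRDC4, the transcription factors MLX and MLXIP, and the glucose transporter genes SLC2A1, SLC2A3 and SLC2A6 were followed in liver-derived SK-Hep-1 cells in which the long noncoding RNA LINC01089 had been targeted. They were picked by symbol and make up 10 of 22464 listed genes. The established line SK-Hep-1 derives from a human liver adenocarcinoma. The sh1089-1 and sh1089-2 lines stably carry lentiviral short hairpins of different sequence against LINC01089, and the shNC line carries a negative control hairpin. Each group is 1 RNA-seq library. There is therefore no replicate check, no test between libraries was made, and all intervals below cover counting error only. The genes were chosen with their values known, so their differences are given as a description. Whether the lines are clones is not given in the sources used here.

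TXNIP is an alpha-arrestin that binds thioredoxin and restrains glucose uptake, in part by drawing glucose transporters away from the cell surface. MLXIP, also called MondoA, dimerises with MLX and activates TXNIP and ARRDC4 when glucose 6-phosphate is plentiful, so that TXNIP mRNA is widely read as a marker of glucose sensing. SLC2A1, SLC2A3 and SLC2A6 encode the facilitative transporters GLUT1, GLUT3 and GLUT6.

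Values are FPKM as the authors deposited them, that is, fragment counts corrected for gene length and sequencing depth. The libraries held 9528312 reads (sh1089-1), 8359832 (sh1089-2) and 10698480 (shNC), worked out from the steps between FPKM values, and each of the 10 genes rested on 57 to 4442 reads per library. The level of LINC01089 was not analysed here, so the labels were not checked against the target. Of the hepatocyte markers, APOA1 and TTR were at 0 reads in all 3 libraries, HNF4A and AFP stayed below 0.5 FPKM, and SERPINA1 had 5.91 FPKM in sh1089-1, 8.004 in sh1089-2 and 4.69 in shNC. The summed hepatocyte markers came to 6.39, 8.36 and 5.19 FPKM in the same order. The 4 endothelial markers (PECAM1, CDH5, VWF, TEK) summed to 0.0391, 0.0427 and 0.122 FPKM, and the 3 listed leukocyte markers to 0.0229, 0 and 0.0425. ALB, APOB and CD3E were not analysed here, and the part of these markers in the results was not tested.

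The promoters of TXNIP and ARRDC4 are shown first because both genes are known targets of the MLXIP and MLX pair. A further reason is that both had more transcript in sh1089-2 than in sh1089-1. SLC2A3 differed more in that direction than ARRDC4 did (1.70-fold against 1.39-fold), but had no promoter window. Whether MLXIP and MLX have a part in these differences was not tested. The sequences are RefSeq promoters on GRCh38.p14, from 250 to 51 bases before the transcript start, read on the strand of the gene. TXNIP is on the minus strand at chr1:145996630-145996829 and ARRDC4 on the plus strand at chr15:97960453-97960652. Capitals mark matches to 4 motifs searched on both strands: CACGTG (an E-box), a paired E-box-like motif, CCAAT and GTAAACA (a forkhead core). The paired motif was CACGNG repeated in the same orientation after a gap of 5 bases. Pairs in opposite orientation were not searched, so the search was not one for carbohydrate response elements in general. No match overlaps another in these sequences.
TXNIP: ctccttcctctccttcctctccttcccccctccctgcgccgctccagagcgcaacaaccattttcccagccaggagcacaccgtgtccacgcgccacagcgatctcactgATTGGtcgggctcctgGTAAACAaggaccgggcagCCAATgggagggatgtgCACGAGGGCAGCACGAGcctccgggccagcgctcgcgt
ARRDC4: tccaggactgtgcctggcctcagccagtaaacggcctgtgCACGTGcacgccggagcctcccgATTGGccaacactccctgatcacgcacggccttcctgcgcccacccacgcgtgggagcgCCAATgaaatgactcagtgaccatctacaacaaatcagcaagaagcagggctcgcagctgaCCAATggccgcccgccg

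In TXNIP the paired motif began 88 bases before the start, between a CCAAT box at 105 bases and the transcript. Of 35116 promoter windows of 300 bases, 20 held the paired motif, which is 0.057%. The other genes with a window had no match to it, and 9 of the 10 genes had a window. These 9 genes had 12 windows, 2 of them of TXNIP, and the match was in 1 of those 2. Because pairs in opposite orientation were not searched, a gene without a match may still carry a carbohydrate response element. The E-box CACGTG was in 7.26% of all windows, and in at least 1 window of 2396 of 27305 genes. Among the 10 genes it was in ARRDC4, 210 bases before the start, and in MLX, 50 bases before it. CCAAT was in 34.6% of windows, in at least 1 window of 10846 of the 27305 genes, and in at least 1 window of each of the 9 genes. The forkhead core was in 3.42% of windows, in 1145 of the 27305 genes, and here in TXNIP and ARRDC3. The matches describe these letters only, and no binding was measured.

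**Figure D1:**
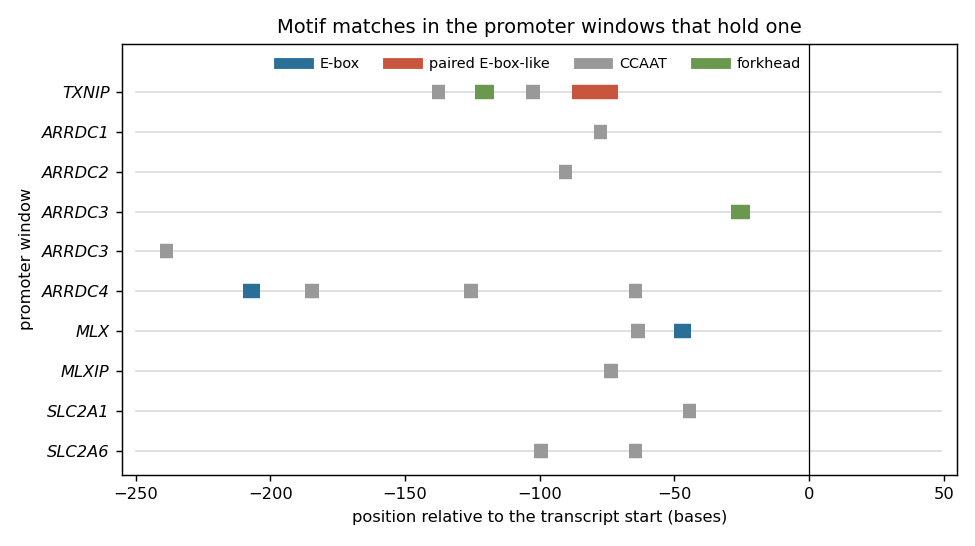
Motif matches by position in the promoter windows that hold at least 1. The x axis is the distance from the transcript start in bases, each row is a promoter window of the named gene, and colours are the 4 motifs. The paired E-box-like motif appears in TXNIP only among these windows, beginning 88 bases before the start.

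TXNIP stood on opposite sides of the control in the hairpin lines. It had 58.3 FPKM in sh1089-1, 147 in sh1089-2 and 82.7 in shNC, on 2012, 4442 and 3208 reads. It was lowest with the first hairpin, highest with the second and intermediate in the control. The gene (ENSG00000265972; GRCh38, chromosome 1, 145992435 to 145996600, minus strand) was the 403rd gene of 11198 by mean FPKM. In RNA from whole cultures, fewer expressing cells and less RNA per cell cannot be told apart.

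The TXNIP ratio of sh1089-1 to shNC was 0.704 (95% counting interval 0.666 to 0.745), and that of sh1089-2 to shNC was 1.77 (1.69 to 1.85). Both comparisons use the same shNC library. Set directly against each other, sh1089-2 was 2.52-fold above sh1089-1 (2.39 to 2.65). On the scale used for thresholds, log2(FPKM + 1), the TXNIP differences were −0.50 for sh1089-1 minus shNC, 0.82 for sh1089-2 minus shNC and 1.32 for sh1089-2 minus sh1089-1. Of the 11198 genes averaging 1 FPKM or more, 120 (1.07%) differed by more than TXNIP between the hairpin lines, in either direction. Between sh1089-1 and shNC 1771 did, and between sh1089-2 and shNC 568. Among the 10122 protein-coding genes on 100 or more reads in total, a limit added after seeing the data, 5, 1363 and 309 did. TXNIP was picked with these values known, so its place among all genes is a description only.

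The 50 expressed genes around TXNIP on chromosome 1 had median differences of −0.12, −0.05 and 0.06 in the same 3 comparisons. They lie between 117929720 and 150600659, a wide stretch, so these medians say little of the genes closest to TXNIP. By a fixed rule, the 5 genes with the most similar pair of differences against shNC among 6369 genes whose mean reached 5 FPKM were RNU7-111P, ENSG00000270705, HMGCS1, PIGBOS1 and RNU6-850P. Their distances to TXNIP were 0.17 to 0.40 in log2 units, over 3 libraries. HMGCS1, which encodes a sterol synthesis enzyme, was the only one on more than 100 reads in each library, and had 4.89 FPKM in sh1089-1, 9.98 in sh1089-2 and 5.53 in shNC. The small RNA genes and the pseudogene rested on 2 to 8 reads per library.

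ARRDC4, the alpha-arrestin closest to TXNIP in its known control by MLXIP, had 12.9 FPKM in sh1089-1, 17.9 in sh1089-2 and 17.1 in shNC. The sh1089-1 library was low and the others were alike. The ratio to shNC was 0.753 (0.671 to 0.845) in sh1089-1 and 1.04 (0.936 to 1.16) in sh1089-2, an interval that includes 1. Between the hairpin lines ARRDC4 was 1.39-fold higher in sh1089-2 (1.23 to 1.56), short of the 1.5-fold mark. TXNIP exceeded ARRDC4 by 4.52-fold in sh1089-1, 8.20-fold in sh1089-2 and 4.83-fold in shNC in FPKM, a measure per length.

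ARRDC3, an adaptor for ubiquitin ligases of the NEDD4 family, had 1.39 FPKM in sh1089-1, 1.37 in sh1089-2 and 2.44 in shNC. Both hairpin lines were low and close to each other. ARRDC3 was 1.75-fold lower in sh1089-1 than in shNC (1.30 to 2.40) and 1.78-fold lower in sh1089-2 (1.30 to 2.48), on 66, 57 and 130 reads. On log2(FPKM + 1) the ARRDC3 differences were −0.52 and −0.54, within 1.5-fold, because the added 1 shrinks the change of a gene this low.

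ARRDC1, which takes part in the budding of vesicles from the plasma membrane, had 9.08 FPKM in sh1089-1, 8.02 in sh1089-2 and 9.79 in shNC. ARRDC2, a further alpha-arrestin, had 6.34, 5.98 and 7.66 FPKM in the same order. Each was lower in the hairpin lines than in shNC, by 1.08-fold to 1.28-fold. The intervals included 1 for ARRDC1 in sh1089-1 and excluded it for ARRDC1 in sh1089-2 and for ARRDC2 in both. TXNIP made up 66.2% of the summed FPKM of the 5 alpha-arrestins in sh1089-1, 81.5% in sh1089-2 and 69.1% in shNC.

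**Figure D2:**
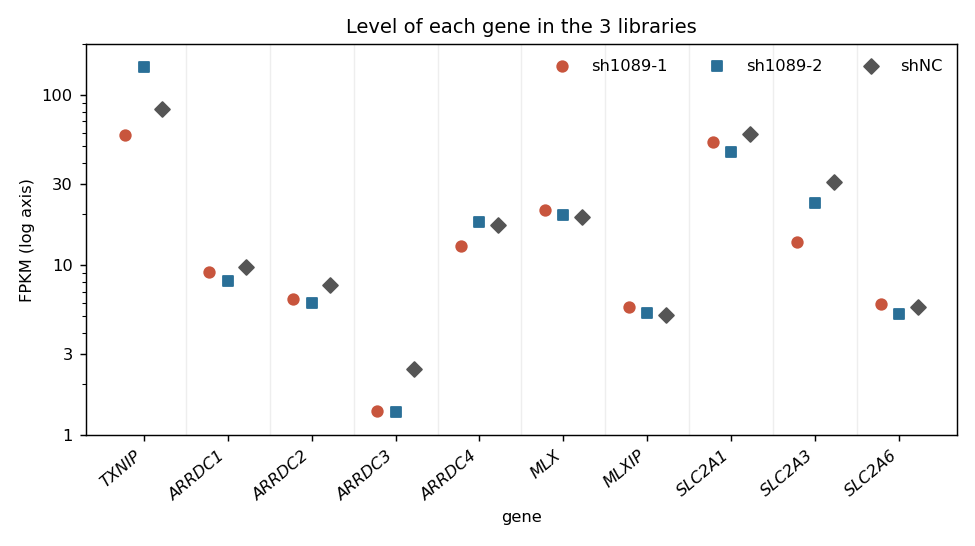
FPKM of each of the 10 genes (x axis) in the 3 libraries on a log axis, 1 point per library. TXNIP spans 58.3 to 147 FPKM with shNC between the hairpin lines, while MLX and MLXIP points nearly coincide.

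The transcription factors above TXNIP and ARRDC4 differed little. MLX had 21.1 FPKM in sh1089-1, 19.9 in sh1089-2 and 19.2 in shNC. MLXIP had 5.71, 5.25 and 5.10 FPKM in the same order. The ratios to shNC were 1.10 (0.9996 to 1.21) and 1.04 (0.936 to 1.14) for MLX, and 1.12 (1.01 to 1.24) and 1.03 (0.924 to 1.15) for MLXIP, for sh1089-1 and sh1089-2 in turn. Of these 4 intervals, that of MLXIP in sh1089-1 alone excluded 1, and that of MLX in sh1089-1 reached it narrowly. MLX stood at 3.69, 3.78 and 3.76 times MLXIP in FPKM. These are mRNA levels, and neither the location nor the activity of the proteins was measured.

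MLXIP lies on the same chromosome as the hairpin target. It spans 122078722 to 122147347 on the plus strand of chromosome 12, and 274816 bases separate it from LINC01089 on the minus strand, with 6 protein-coding genes wholly in between. The 50 expressed genes around MLXIP had median differences of −0.01 in sh1089-1 and −0.05 in sh1089-2 against shNC.

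Of the transporters, SLC2A3 differed most. It had 13.7 FPKM in sh1089-1, 23.3 in sh1089-2 and 31.0 in shNC, on 795, 1184 and 2013 reads. Both hairpin lines were below the control, sh1089-1 further so. The ratio to shNC was 0.443 (0.408 to 0.482) in sh1089-1 and 0.753 (0.700 to 0.809) in sh1089-2, and sh1089-2 stood 1.70-fold above sh1089-1 (1.55 to 1.86). SLC2A3 (chromosome 12, 7919230 to 7936275, minus strand) has the near copy SLC2A14, which had 0, 1 and 0 reads. How reads that fit either copy were treated is not given, so the SLC2A3 level is uncertain to that extent. The 50 expressed genes around SLC2A3 had medians of 0.07 and 0.01 against shNC.

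SLC2A1, the most abundant of the 3 transporters, had 53.3 FPKM in sh1089-1, 46.4 in sh1089-2 and 59.3 in shNC. Here sh1089-2 was the lower of the hairpin lines, unlike for SLC2A3. The SLC2A1 ratios to shNC were 0.900 (0.852 to 0.950) and 0.784 (0.739 to 0.831), and sh1089-2 stood at 0.871 of sh1089-1 (0.819 to 0.926). SLC2A6, a transporter of intracellular membranes, had 5.91, 5.18 and 5.64 FPKM, and all 3 of its intervals included 1.

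Summed over SLC2A1, SLC2A3 and SLC2A6, the transporters came to 73.0 FPKM in sh1089-1, 74.95 in sh1089-2 and 95.9 in shNC. SLC2A3 made up 18.8%, 31.1% and 32.3% of that sum, and SLC2A1 73.1%, 62.0% and 61.8%. The make-up in sh1089-2 was thus close to that in shNC, while sh1089-1 had a larger share of SLC2A1. The plot of stacked transporter levels shows both the lower sums and the thinner SLC2A3 layer of sh1089-1.

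**Figure D3:**
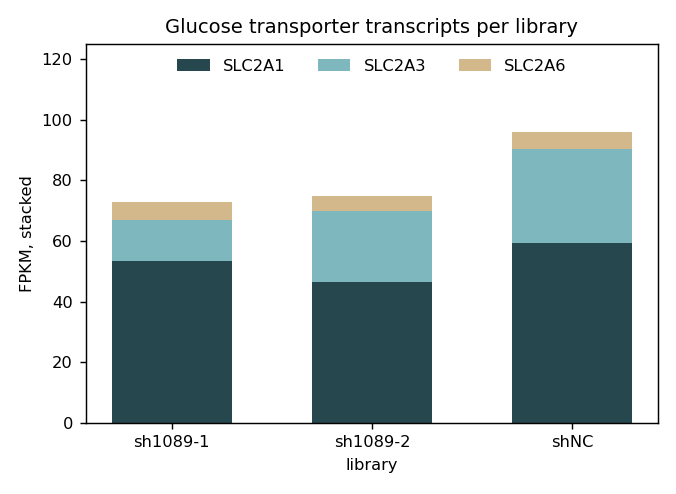
Stacked FPKM of SLC2A1, SLC2A3 and SLC2A6 (y axis, from 0) in each library (x axis). The stacks reach 73.0 in sh1089-1, 74.95 in sh1089-2 and 95.9 in shNC, and the SLC2A3 layer is thinnest in sh1089-1.

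The 10 genes were then set beside all genes. At least 1.5-fold from shNC in log2(FPKM + 1) stood 1 of 10 in sh1089-1 (SLC2A3, lower), where 11.1% of the 11198 genes averaging 1 FPKM or more did. In sh1089-2 it was 1 of 10 (TXNIP, higher), against 10.5% of all genes. Between sh1089-2 and sh1089-1 it was 2 of 10 (TXNIP and SLC2A3, both higher in sh1089-2), against 4.78%. The median difference of the members was −0.19, −0.18 and −0.08 in these 3 comparisons, and that of all genes −0.03, −0.04 and −0.01. The members were chosen with these values in view, so nothing is read from the counts.

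**Figure D4:**
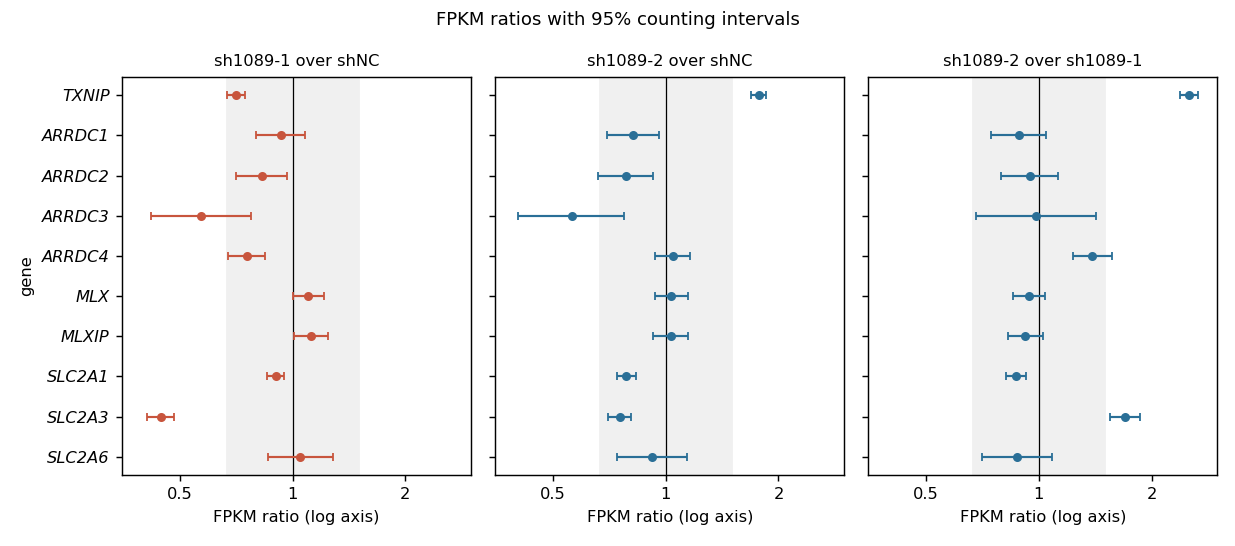
FPKM ratios (x axis, log) with 95% counting intervals for each gene (y axis) in 3 comparisons. Grey marks less than 1.5-fold, and TXNIP lies left of 1 for sh1089-1 over shNC (0.704) and right of it for sh1089-2 over shNC (1.77).

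**Figure D5:**
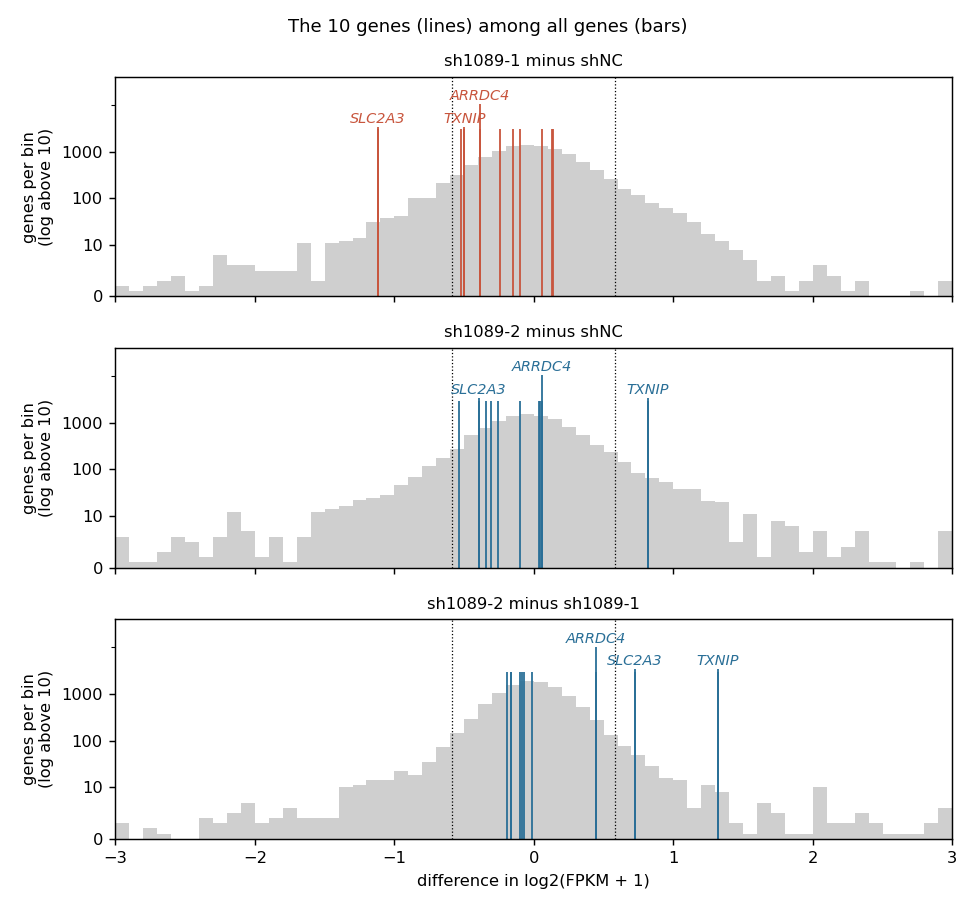
Histograms of the difference in log2(FPKM + 1) over 11198 genes (bars, log above 10, end bins holding all beyond) with the 10 genes as lines, and dotted lines at 1.5-fold. TXNIP lies at 1.32 in the bottom panel, sh1089-2 minus sh1089-1, and SLC2A3 and ARRDC4 are the next lines to its left.

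Other genes of the pathway came from lists of 71 genes, of which 48 averaged 1 FPKM or more. Past 1.5-fold on log2(FPKM + 1) were 1 higher and 3 lower in sh1089-1 against shNC, 0 higher and 6 lower in sh1089-2 against shNC, and 0 in either direction between the hairpin lines. As shares these are 8.33%, 12.5% and 0%, beside the 11.1%, 10.5% and 4.78% of all genes. By plain FPKM ratios, a scale added after seeing the data, 1 was higher and 6 lower in sh1089-1 against shNC. In sh1089-2 against shNC 0 were higher and 8 lower, and 1 was lower in sh1089-2 than in sh1089-1 (NLRP3). The share of all genes past 1.5-fold on that scale was not computed, so nothing is read from these counts.

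Of 4 other genes reported to follow MLXIP, only LDHA, a lactate dehydrogenase subunit, was past 1.5-fold on log2(FPKM + 1). It had 328 FPKM in sh1089-1, 324 in sh1089-2 and 578 in shNC. KLF10, a transcription factor gene induced by glucose in hepatocytes, had 10.3, 12.4 and 9.56 FPKM, and was highest in sh1089-2 as TXNIP was. Unlike TXNIP, KLF10 was not below shNC in sh1089-1, where its ratio was 1.08 (0.932 to 1.24). HK2, a hexokinase, had 26.7, 22.3 and 26.8 FPKM, and PFKFB3, which makes an activator of glycolysis, 15.2, 13.2 and 20.2. By its plain ratio PFKFB3 was 1.53-fold lower in sh1089-2 than in shNC (1.39 to 1.68). Neither HK2 nor PFKFB3 was highest in sh1089-2.

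Among 10 partners in the MLX and MAX network, 7 were measured and 6 of these lay below shNC with each hairpin, where 53.6% (sh1089-1) and 55.1% (sh1089-2) of all genes did. Both comparisons rest on the same shNC library, and the counting interval included 1 for MXD4 in both and for MGA in sh1089-1. MXI1, a MAX-binding repressor, was the only one of the 7 past 1.5-fold, with 2.47 FPKM in sh1089-1, 2.27 in sh1089-2 and 5.19 in shNC. MLXIPL, which encodes ChREBP, the paralog of MLXIP prominent in liver, rested on 3, 9 and 19 reads and had a mean below 1 FPKM. MAX had 9.23, 8.72 and 11.3 FPKM.

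In the thioredoxin system, TXN, the partner that TXNIP binds, had 348 FPKM in sh1089-1, 297 in sh1089-2 and 356 in shNC. TXN stood at 5.97, 2.03 and 4.30 times TXNIP in FPKM, so the excess of TXN was smallest in sh1089-2. TXNRD2, the mitochondrial thioredoxin reductase, was 1.57-fold above shNC in sh1089-1 (1.43 to 1.73) and 1.30-fold in sh1089-2 (1.17 to 1.44). DDIT4, a stress-induced inhibitor of mTORC1 signalling, had 197, 159 and 244 FPKM.

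Of 9 listed NEDD4 family ubiquitin ligases, the enzymes that alpha-arrestins recruit, 7 averaged 1 FPKM or more. These 7 lay below the shared shNC library with each hairpin, where 53.6% (sh1089-1) and 55.1% (sh1089-2) of all genes did. Their median differences were −0.18 and −0.33, beside −0.03 and −0.04 for all genes. The counting interval included 1 for ITCH and WWP2 in sh1089-1, and for NEDD4L, WWP2 and SMURF1 in sh1089-2. SMURF2 had 26.2 FPKM in sh1089-1, 24.5 in sh1089-2 and 42.0 in shNC, past 1.5-fold in both comparisons. NEDD4 itself had 8.97, 6.95 and 13.8 FPKM, and on log2(FPKM + 1) was past 1.5-fold in sh1089-2 (−0.89) but not in sh1089-1 (−0.56). ITCH, a ligase known to act on TXNIP protein, had 7.18, 5.47 and 8.04 FPKM.

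Of 13 other glucose and polyol transporters, only SLC2A8 and SLC5A2 had a mean of at least 1 FPKM. SLC2A8 had 5.08 FPKM in sh1089-1, 4.57 in sh1089-2 and 5.19 in shNC. SLC5A2 overlaps exons of a gene on the opposite strand, and whether counting used the strand is not given, so its 7.42, 7.98 and 7.07 FPKM are uncertain. Of the other arrestins, ARRB1 had 2.10, 1.60 and 3.29 FPKM and ARRB2 17.8, 17.8 and 14.4. No measured gene of glucose 6-phosphate handling (8), AMPK subunits (6) or the retromer (6) was past 1.5-fold on log2(FPKM + 1) in any comparison. Of all genes, 11.1% were in sh1089-1 against shNC, 10.5% in sh1089-2 against shNC and 4.78% between the hairpin lines. With groups this small, nothing is read from the absence. The retromer recycles GLUT1. By plain ratios, VPS35 of the retromer was 1.54-fold lower in sh1089-2 than in shNC, and PRKAB2 of AMPK 1.51-fold lower in sh1089-1. PRKAG1, a regulatory subunit of AMPK, a kinase that marks TXNIP for degradation, had 9.43 FPKM in sh1089-1, 14.0 in sh1089-2 and 12.3 in shNC.

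The strand also bears on the members. Exons of genes on the opposite strand overlap ARRDC1, ARRDC2, ARRDC3, MLX and SLC2A1. For MLX this is PSMC3IP, with 14.2 FPKM in sh1089-1, 13.2 in sh1089-2 and 12.4 in shNC. TXNIP, ARRDC4, MLXIP, SLC2A3 and SLC2A6 have no overlapping gene in GENCODE 29.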

How the data were processed

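RNA-seq of 3 SK-Hep-1 lines was deposited as 1 table. Per the labels, mRNA was enriched and libraries were strand-specific, and FastQC, StringTie and GRCh38 appear in the submitters' processing notes. For the aligner, the annotation and the use of the strand, the answer is not given in the sources used here. The authors deposited FPKM values, and nothing else. Symbols were found for 22375 of 22464 identifiers. Coordinates and exon lengths are from GENCODE 29 (GRCh38).

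Library totals and reads were recovered as the whole numbers, within 0.01 read, that FPKM steps imply. A fitting length was found for 19202 of 19219 genes above 0, the nearest to GENCODE being taken. Of the 10 genes, 4 had the annotated length, and the others were within 1.43% of it. The recovery and the calls were run on simulated reads with counting error only, and the recovery was given the true lengths and library totals. Such a run cannot show how either fares on these data. Ratios carry exact Clopper-Pearson 95% intervals from reads, and a count of 0 allows up to 3 reads. Thresholds apply to log2(FPKM + 1) at a mean FPKM of at least 1. With 1 library per group there was no test, and no count model was run. Members, lists and rules were chosen with earlier results of these data known. All 10 members are named, with context genes past 1.5-fold the same way with both hairpins and further genes that show a list or passed in 1 comparison. Alternatives were the pseudocount, the scaling, the filter and the fold. Python 3.11.15, pandas 2.3.3 and scipy 1.17.1 were used.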

Additional observations from a re-analysis of the deposited data

Results flagged for a closer look

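TXNIP was singled out because the sh1089-1 library lay below shNC (ratio 0.704) and the sh1089-2 library above it (ratio 1.77), with both counting intervals clear of 1. The difference in log2(FPKM + 1) between sh1089-2 and sh1089-1 was 1.32. That the effects of the hairpins differ was not tested, since each line is 1 library, and a difference between hairpins and a difference between cultures cannot be told apart.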

How the results depend on the processing

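Of 180 member differences recomputed under 6 alternatives, 173 stayed within the counting interval, 7 left it, and none past 1.5-fold changed sign. The interval here is for the difference in log2(FPKM + 1), not for the plain ratio. Of the 7, 2 are plain ratios of ARRDC3 against shNC, a gene whose change that scale shrinks. The TXNIP difference of sh1089-2 against shNC came to 0.89 after rescaling to TPM. ARRDC3, and with it the number of members past 1.5-fold against shNC, depends on the scale. With a pseudocount of 0.1, after rescaling to TPM or by plain FPKM ratios, 2 members passed in sh1089-1 and 2 in sh1089-2, in place of 1 and 1. More of all genes passed too with that pseudocount and with TPM, and by plain ratios all genes were not counted. With a fold of 2, 0 passed in sh1089-2 against shNC and 1 between the hairpin lines. Between sh1089-2 and sh1089-1, the ARRDC3 difference of −0.01 changed sign with TPM (0.02) and when scaled without the 100 highest genes (0.01). Counts over all genes moved more. In sh1089-1 against shNC they were 590 higher and 653 lower, and ranged over 154 to 1121 and 169 to 1484. In sh1089-2 against shNC they were 548 and 630, with ranges of 183 to 1326 and 180 to 1191. The low ends of these ranges against shNC are counts at a fold of 2, not at 1.5-fold. Between the hairpin lines they were 277 and 258, with ranges of 69 to 1035 and 91 to 685. The highest counts came with TPM values, which were 3.15 to 3.30 times the FPKM values while the pseudocount stayed at 1. The cause was not tested. Plain ratios, and the limit to protein-coding genes on 100 reads or more, were added after seeing the data. No paired analysis was possible because each group has 1 library.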
